A study of Homo sapiens with 42 samples.

Results

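Loop hubs were taken as the 10 kb anchors used by 6 or more of the 33914 loops that in situ Hi-C detected in K562 cells. They numbered 337 of 43806 anchors (0.769%), and 2231 loops (6.58% of all loops) had at least 1 end on a hub. K562 is an established human leukemia cell line with erythroid and megakaryocytic features. The cells were wild type and received 25 nM PMA for 0 h, 6 h or 72 h (phorbol 12-myristate 13-acetate), a phorbol ester that activates protein kinase C and drives K562 toward megakaryocytes. The medium was replaced after 24 h and 48 h. Each time had 4 biological replicates in 14 samples: replicates 1 and 2 had 3 technical replicates each, and replicates 3 and 4 had 2, each sequenced 2 times. All samples come from the same cell line and no vehicle group is among them, so time in culture and time in PMA cannot be told apart. The labels do not say whether replicates were separate cultures, so p-values measure the spread between these libraries, which may be technical.

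Chromatin loops form when cohesin extrudes DNA until it meets a barrier, most often CTCF bound with its motif facing the loop. An anchor with several partners on one side is what a stripe of extrusion from a strong barrier, or a promoter in contact with several distant elements, looks like in a list of loops. A Hi-C library pools many cells, so several loops at a hub need not exist in the same cell, and the counts hold the local background of contacts as well as the loop.

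A minority of hubs lay at the ends of genes: a protein-coding gene ended or began within 46 of 337 hub anchors (13.7%), against 16.4% of the other anchors. The share was 11.8% at hubs of 6 to 7 loops and 22.8% at hubs of 8 or more. RefSeq (GRCh38.p14) held a promoter window for 21 hub anchors, and 3 of them at hubs described in detail below are shown here, since their loops changed at 6 h or unequally at 72 h. BTG1 encodes an antiproliferative protein, CITED2 a partner of the coactivators CBP and p300, and ID2 a helix-loop-helix protein that cannot bind DNA and inhibits its relatives. The 250 bases before each start are printed 5′ to 3′ on the strand of the gene. They lie at chr12:92145847-92146096 (minus strand), chr6:139374649-139374898 (minus strand) and chr2:8681806-8682055 (plus strand). Capitals mark matches on either strand to the CCAAT box (CCAAT) or to part of the cyclic AMP response element (TGACG).

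BTG1: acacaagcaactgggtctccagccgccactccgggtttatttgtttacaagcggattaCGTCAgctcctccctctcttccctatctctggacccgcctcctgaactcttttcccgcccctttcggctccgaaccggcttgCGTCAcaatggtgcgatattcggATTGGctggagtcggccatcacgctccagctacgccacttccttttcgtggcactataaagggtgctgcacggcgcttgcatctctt
CITED2: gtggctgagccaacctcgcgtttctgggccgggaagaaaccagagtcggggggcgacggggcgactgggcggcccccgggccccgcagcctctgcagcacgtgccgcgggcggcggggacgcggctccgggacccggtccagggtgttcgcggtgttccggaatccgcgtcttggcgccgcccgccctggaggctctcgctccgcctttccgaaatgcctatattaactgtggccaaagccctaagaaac
ID2: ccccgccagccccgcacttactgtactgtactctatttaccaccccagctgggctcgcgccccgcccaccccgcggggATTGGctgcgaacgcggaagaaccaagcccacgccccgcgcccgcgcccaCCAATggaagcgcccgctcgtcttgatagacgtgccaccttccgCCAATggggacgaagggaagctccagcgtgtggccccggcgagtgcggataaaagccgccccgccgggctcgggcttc

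Across all 35116 promoters of the table, 32.0% of the 250-base windows held CCAAT and 21.2% held TGACG; the windows at hubs did so in 5 and 3 of 21. These motifs were added after the sequences had been seen. A CTCF core motif was in 2.02% of all windows and in 0 of the 21 at hubs, and the AP-1 site TGANTCA in 6.57% of all windows and in 2 of the 21, at GJA1 and SLC29A3. A window of this size is a small part of a 10 kb anchor, and the rest of the anchor sequence was not analysed here.

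Most hubs pointed one way. In 263 of 337 all partners lay on one side, to the right (higher coordinates) in 135 and to the left in 128, and 34 of the other 74 had just 1 loop on their minor side. The share of one-sided anchors hardly depended on the number of loops: it was 81.7% at 2 loops, 78.1% at 3, 76.0% at 4 to 5, 77.9% at 6 to 7 and 78.9% at 8 or more. A total of 200 hubs had exactly 6 loops, and 57 had 8 or more, up to 14. Anchors just outside the rule were alike: the 536 with 5 loops were one-sided in 74.8% and the 200 with 6 loops in 79.5%.

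Hub loops were long and weak. Their median length was 780 kb (range 40 kb to 6220 kb), against 420 kb for the other loops, and 37.8% spanned 1 Mb or more, against 21.6%. A hub loop held a median of 10.6 contacts per library, against 19.2 for the other loops. As a result, 1294 of the 2231 hub loops (58.0%) had enough contacts to be tested one by one, against 72.1% of the others, and 58 hubs had no tested loop. Loops whose busier anchor had 5 loops lay between, with a median of 600 kb, 27.1% of 1 Mb or more, 14.8 contacts and 68.5% tested. Length and weakness were thus graded and not particular to hubs. Hub totals, the sum of contacts over all loops of a hub, could be tested for 334 of 337 hubs. Contacts within a hub were spread: its strongest loop held a median of 29.4% of its contacts at 0 h, 27.1% at 6 h and 26.2% at 72 h, exceeded 50% at 0 h in 12 hubs and was the shortest loop in 198.

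**Figure D1:**
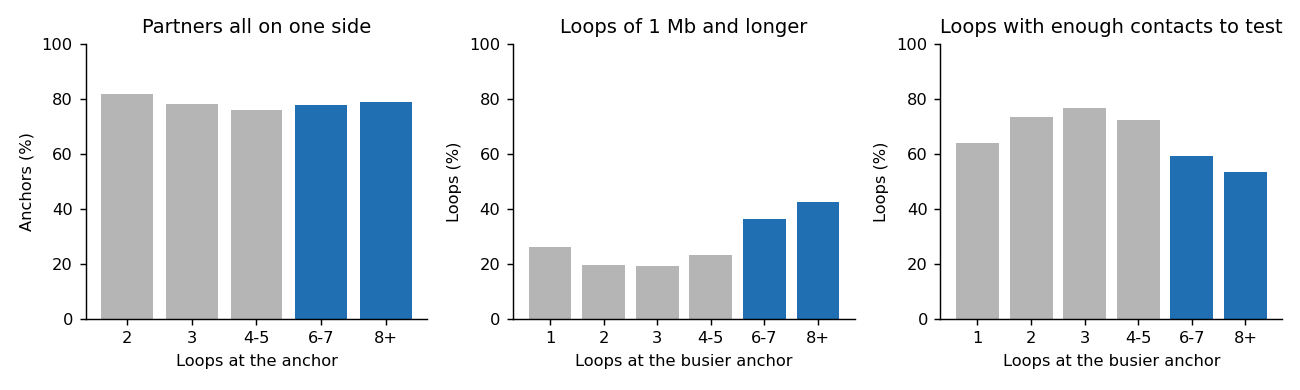
Share of anchors with all partners on one side, of loops of 1 Mb and longer, and of loops with enough contacts to test, by the number of loops at the anchor (left, anchors) or at the busier of a loop's anchors (middle and right, loops). Blue bars are hubs. One-sidedness stays between 76.0% and 81.7%, while loops at hubs are more often long and less often testable.

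Hubs were found on 20 chromosomes, with 51 on chromosome 1, 50 on chromosome 4 and 34 on chromosome 3, and with 0 on chromosomes 18, 19 and 22. Joined wherever neighbours lay within 1 Mb, the hubs formed 250 groups, of which 203 held a single hub. The 2 largest groups were on the short arm of chromosome 1: 16 hubs at chr1:78140001-82900000 and 15 at chr1:71230001-74690000. They had partners on both sides at 13 of 16 and 9 of 15 hubs, no end of a protein-coding gene at any hub anchor, and medians of 3.58 and 3.92 contacts per loop and library. Just 3 of 92 and 12 of 98 of their loops could be tested. Chromosome 1 held 30 of the 74 two-sided hubs. A total of 46 loops joined 2 hubs, and 17 of these could be tested.

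Hubs were 0.769% of anchors, so counts of listed genes at hubs are small by number alone. None of the 22 megakaryocyte and platelet genes, 21 erythroid genes, 8 kinases and related PMA targets or 14 genes of the loop machinery had an end in a hub anchor, although 8, 10, 5 and 8 of them had one in some loop anchor. MYC was the single one of 16 AP-1 and immediate early genes at a hub. The body of RUNX1, a transcription factor needed for megakaryocytes, covered the hub chr21:34890001-34900000. Hubs held ends of 0 HOX, clustered protocadherin, clustered histone (H1, H2A, H2B, H3 and H4) or ZNF genes, which had 21, 16, 31 and 122 members with an end in some anchor. These zeros are counts, and nothing is read from them.

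The first comparison asked whether contacts moved into or out of hub loops over time. Libraries held between 736929 and 1472197 contacts in loops, of which 26521 to 50806 were in hub loops. The hub share was 3.45%, 3.57%, 3.44% and 3.44% in the 0 h replicates 1 to 4, and 3.55%, 3.65%, 3.60% and 3.52% at 6 h. At 72 h it was 3.83%, 3.93% and, with replicates 3 and 4 counted as 1 sample since they differed by no more than sampling noise, 3.96%. The 72 h values lay above all others, and the 0 h and 6 h values overlapped. The mean was 3.48% ± 0.063 before PMA (SD, n = 4). It was 3.58% ± 0.056 by 6 h (SD, n = 4) and then 3.91% ± 0.067 (SD, n = 3). The rise of 0.431 percentage points from 0 h to 72 h had p = 0.0571 (two-sided exact permutation test, adjusted p = 0.0612 over 15 tests), which is the smallest p that 4 against 3 samples allow. Replicates 1 and 2 alone gave 0.369, and replicates 3 and 4 alone gave 0.522. At 6 h the difference was 0.103 points (exact permutation p = 0.0857), with 0.0868 and 0.120 in the same sets.

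Loop length moved with this result. Loops of 1 Mb and longer took 12.8% ± 0.56 of hub loop contacts before PMA (SD, n = 4). The same measure was 14.0% ± 0.51 by 6 h (SD, n = 4) and 17.4% ± 0.20 by 72 h (SD, n = 3). Among the other loops they took 3.00%, 3.50% and 4.34%. With 3 length classes weighted as at 0 h, the hub share was 3.48%, 3.43% and 3.64%, so that the difference at 72 h was 0.167 points and that at 6 h became -0.0438 (exact permutation p = 0.0571 for each). The direction thus held at 72 h and turned at 6 h.

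**Figure D2:**
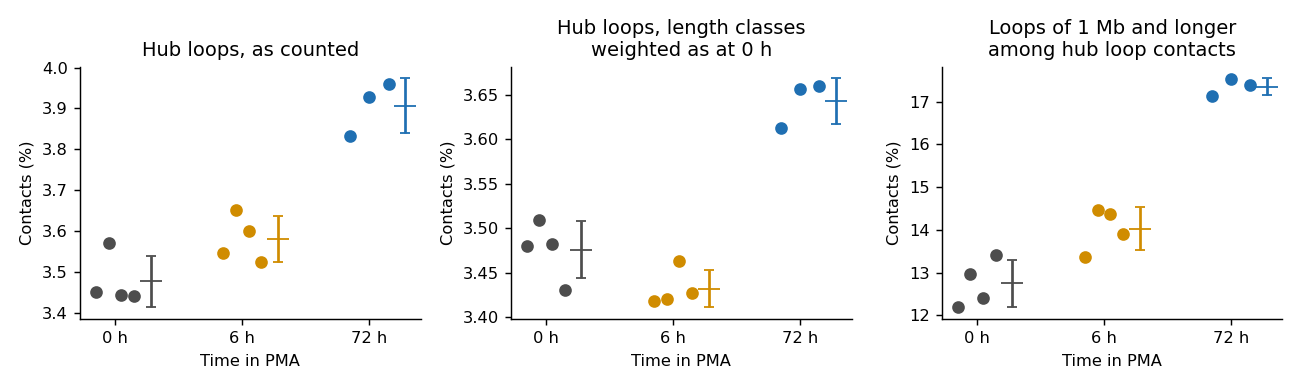
Hub loop contacts as a percent of all loop contacts in each library (left), the same with length classes weighted as at 0 h (middle), and loops of 1 Mb and longer as a percent of hub loop contacts (right). Points are libraries, with the 72 h replicates 3 and 4 joined, and bars are mean ± SD; the axes do not start at 0. All 72 h points lie above all 0 h and 6 h points in each panel.

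Of the hub totals that changed by 72 h, most rose. Of 334 tested, 150 rose and 30 fell (53.9% called, edgeR quasi-likelihood test, adjusted p under 0.05), against a background of 39.1% of 33306 anchor totals called, 19.4% up and 19.7% down. The median log2 fold change was 0.25 for hubs and 0.01 for all tested anchors. The share called was also higher at each larger number of loops below the threshold of the rule, from 35.8% at 1 loop to 49.2% at 4 to 5, so a share above the background is not particular to hubs. Anchors of 5 loops leaned toward rises too, with 192 up and 75 down and a median of 0.19. The lean is thus not particular to hubs either. The totals of 143 hubs did not overlap between the 4 libraries of 0 h and the 4 of 72 h (42.8%, against a background of 32.1%). The direction depended in part on length: with a correction for loop length 69 hub totals rose and 41 fell, and the median was 0.06. Under that correction 5112 of all anchor totals rose and 5828 fell, with a median of -0.03. A smaller lean toward rises thus remained among hubs, and anchors of 5 loops had 109 up and 84 down. The share of hub totals called was then 32.9%, against a background of 32.8% under the same correction, so the excess in share called was gone. Both fits called 97 hubs, 69 up and 28 down. Summing the 72 h replicates 3 and 4 into 1 library gave 170 calls, 138 of them up. From 6 h to 72 h 96 hub totals rose and 13 fell, against a background of 23.8% called, 12.4% up and 11.5% down, and 70 rose and 15 fell after the length correction (25.4%, against a background of 22.5%). Under that correction 3759 of all anchor totals rose and 3734 fell, and 113 and 39 at anchors of 5 loops.

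**Figure D3:**
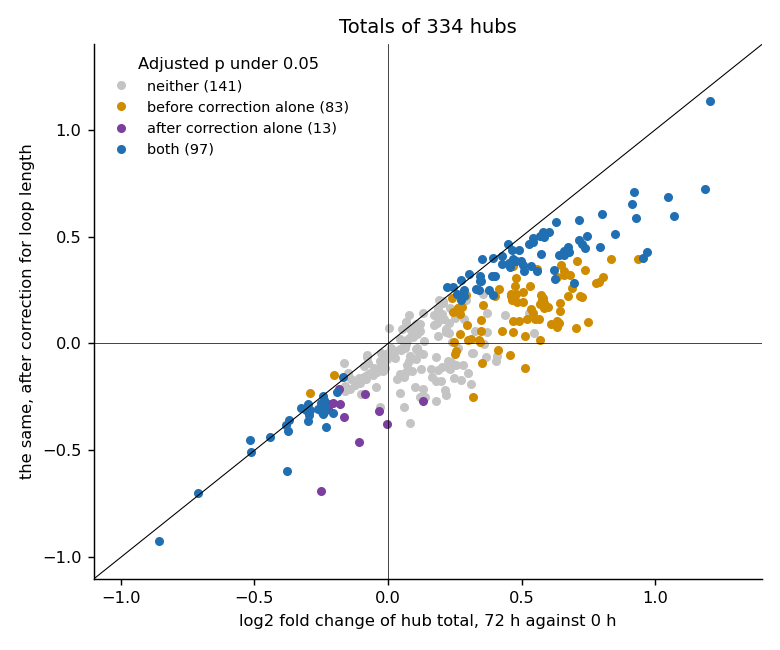
Each point is the total of 1 of 334 hubs, as log2 fold change from 0 h to 72 h before (x axis) and after (y axis) correction for loop length, coloured by which fit called it. Most hubs lie right of 0 and below the diagonal: 83 are called before the correction alone, 13 after it alone and 97 by both.

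The hub with the largest rise, chr12:28870001-28880000, had 6 loops to the left, 1 of them ending at CCDC91. Its normalized total, in contacts per 1000000 anchor contacts (each contact counts at both of its anchors), was 39.5, 44.5, 35.8 and 37.4 at 0 h, and 43.3, 47.7, 55.0 and 51.6 at 6 h. It reached 97.4, 85.0, 103 and 85.5 at 72 h. All 72 h libraries were far above the others, a log2 change of 1.21 (SE 0.10, edgeR adjusted p = 1.49e-19), and at 6 h the change of 0.30 did not pass the test. Here and below, ± gives the SD over the 4 libraries of 0 h or 6 h, or over the 3 values of 72 h. Its shortest loop, of 90 kb, rose from 23.0 ± 6.2 (SD, n = 4) to 73.0 ± 11 (SD, n = 3) contacts per 1000000 loop contacts, and its loops of 630 kb, 680 kb and 910 kb rose by 1.93, 1.29 and 0.73 on the log2 scale. After the length correction the log2 fold change of the hub was 1.14.

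The 4 next largest rises were weak hubs of long loops. Totals at chr1:74660001-74670000, inside ERICH3, rose from 8.41 ± 3.6 to 21.1 ± 2.9, where the 0 h libraries ranged from 4.32 to 12.5 and those of 72 h between 18.0 and 24.4. At chr15:37880001-37890000 the 0 h libraries held 16.4, 17.6, 22.2 and 20.1 and the 72 h libraries 39.9, 40.6, 40.4 and 40.3, a log2 change of 1.07 (SE 0.14, edgeR adjusted p = 2.46e-10). The hubs chr3:107060001-107070000 and chr10:9300001-9310000 rose by 1.05 and 0.97 on the log2 scale. Median loop lengths of these 4 hubs ran from 1250 kb to 1875 kb, and after the length correction their log2 fold changes were 0.72, 0.60, 0.68 and 0.43, all still past the threshold.

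The falls were at hubs of shorter loops. The hub chrX:11140001-11150000 lies inside ARHGAP6. Its totals were 84.8, 67.7, 77.7 and 78.8 at 0 h, 71.3, 55.9, 52.9 and 46.3 at 6 h, and 43.8, 44.0, 41.9 and 39.9 at 72 h. The 72 h libraries were below all others, a log2 change of -0.86 (SE 0.10, edgeR adjusted p = 3.27e-11), and the 6 h change of -0.43 also passed the test (adjusted p = 0.00279). Of its 6 loops, 5 fell singly at 72 h.

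At chr4:55730001-55740000 the fall was present at 6 h, and the further log2 change from 6 h to 72 h was -0.15 (edgeR adjusted p = 0.217). Totals were 186, 170, 171 and 161 at 0 h, 122, 97.6, 137 and 113 at 6 h, and 109, 94.8, 108 and 109 at 72 h. The log2 fold change was -0.57 at 6 h (SE 0.081, edgeR adjusted p = 2.91e-07) and -0.71 at 72 h (SE 0.080, adjusted p = 1.11e-12). Its 7 partners all lay to the left. The loop of 100 kb to the anchor with an end of NMU, the gene of the neuropeptide neuromedin U, went from 112 ± 6.3 to 64.6 ± 10 and 52.2 ± 3.7 contacts per 1000000 loop contacts. The loop of 180 kb to the anchor of PDCL2 went from 72.6 ± 4.0 to 42.4 ± 7.5 and 43.2 ± 4.5.

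The hubs chr8:37780001-37790000 and chr2:177160001-177170000 fell by 0.52 and 0.51 on the log2 scale at 72 h, with 4 loops falling singly at each. The hub at AQP9, the gene of a water and glycerol channel, is chr15:58180001-58190000. It held 166, 142, 144 and 133 at 0 h, 119, 119, 129 and 119 at 6 h, and 119, 98.7, 102 and 112 at 72 h. No 6 h or 72 h library reached the lowest 0 h library, and both changes passed the test (log2 -0.28 and -0.44, edgeR adjusted p = 0.0174 and 3.53e-06), but the 6 h call was lost with DESeq2 and without 0 h replicate 1. These 5 falls had log2 changes of -0.44 to -0.92 after the length correction.

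By 6 h fewer hubs had changed. Of 334 hub totals 12 rose and 8 fell (5.99%), against a background of 7.55%, 2.81% up and 4.74% down, and DESeq2 called 3 and 5. With the length correction 5 rose and 18 fell (6.89%, against a background of 5.44%). Without 0 h replicate 1, the deepest library, 10 hubs were called in all (13 without 6 h replicate 1). A total of 72 hubs had an unadjusted p under 0.05. Of the 20 hubs called, 16 were called at 72 h too, in the same direction, but both comparisons share the 0 h libraries. The 5 largest rises were 0.56 to 0.70 on the log2 scale. They were at chr5:106120001-106130000, chr1:73350001-73360000, chr4:101170001-101180000 (inside PPP3CA, a catalytic subunit of calcineurin), chr6:141560001-141570000 and chr1:82890001-82900000. All 5 were weak hubs whose libraries held 6.17 to 16.7 per 1000000 at 0 h, and none stayed past the threshold with DESeq2 or with the length correction. Each also lost its 6 h call without 0 h replicate 1 and without 6 h replicate 2, and 4 of them without some further libraries.

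The 6 h falls were at stronger hubs and included 2 gene starts whose promoter sequences are given above. At the BTG1 hub, chr12:92140001-92150000, totals were 72.7, 59.4, 76.5 and 59.2 at 0 h. They were 42.9, 44.5, 43.8 and 49.3 at 6 h, and 70.8, 68.4, 63.9 and 59.6 at 72 h. Every 6 h library was below every library of the other times, and those of 0 h and 72 h overlapped. The log2 fold change was -0.56 from 0 h to 6 h (SE 0.11, edgeR adjusted p = 0.000188) and 0.54 from 6 h to 72 h (adjusted p = 8.14e-05). The fall lay in its 3 strongest loops, of 240 kb, 260 kb and 430 kb, which fell at 6 h by 0.76, 0.88 and 0.85 on the log2 scale. Its other 3 loops, of 520 kb to 760 kb, had log2 changes of -0.06 to 0.26, none past the threshold. The 260 kb and 430 kb loops rose again from 6 h to 72 h, by 0.68 and 0.94.

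At the CITED2 hub, chr6:139370001-139380000, with 9 loops to the right, totals were 172, 158, 157 and 165 at 0 h. They were 135, 114, 129 and 127 at 6 h, and 131, 131, 140 and 147 at 72 h. All libraries of the later times were below all of 0 h. The log2 change was -0.37 at 6 h (SE 0.079, edgeR adjusted p = 0.000755) and -0.25 at 72 h (SE 0.076, adjusted p = 0.0059). Its loops parted ways after 6 h. The loops of 150 kb, 270 kb and 450 kb fell at 6 h and were still lower at 72 h, by 0.53, 0.83 and 0.68 on the log2 scale. The loop of 620 kb went from 48.4 ± 3.8 to 29.8 ± 3.2 and 52.2 ± 0.85, a fall of 0.65 and then a rise of 0.78, both past the threshold. The hub chrX:107020001-107030000 also fell at 6 h, by 0.35 on the log2 scale (edgeR adjusted p = 0.0193), and at 72 h its log2 change of -0.23 did not pass (adjusted p = 0.0511). The 6 h call was lost with DESeq2 (adjusted p = 0.069) and without 0 h replicate 4, 6 h replicate 1 or 6 h replicate 2.

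**Figure D4:**
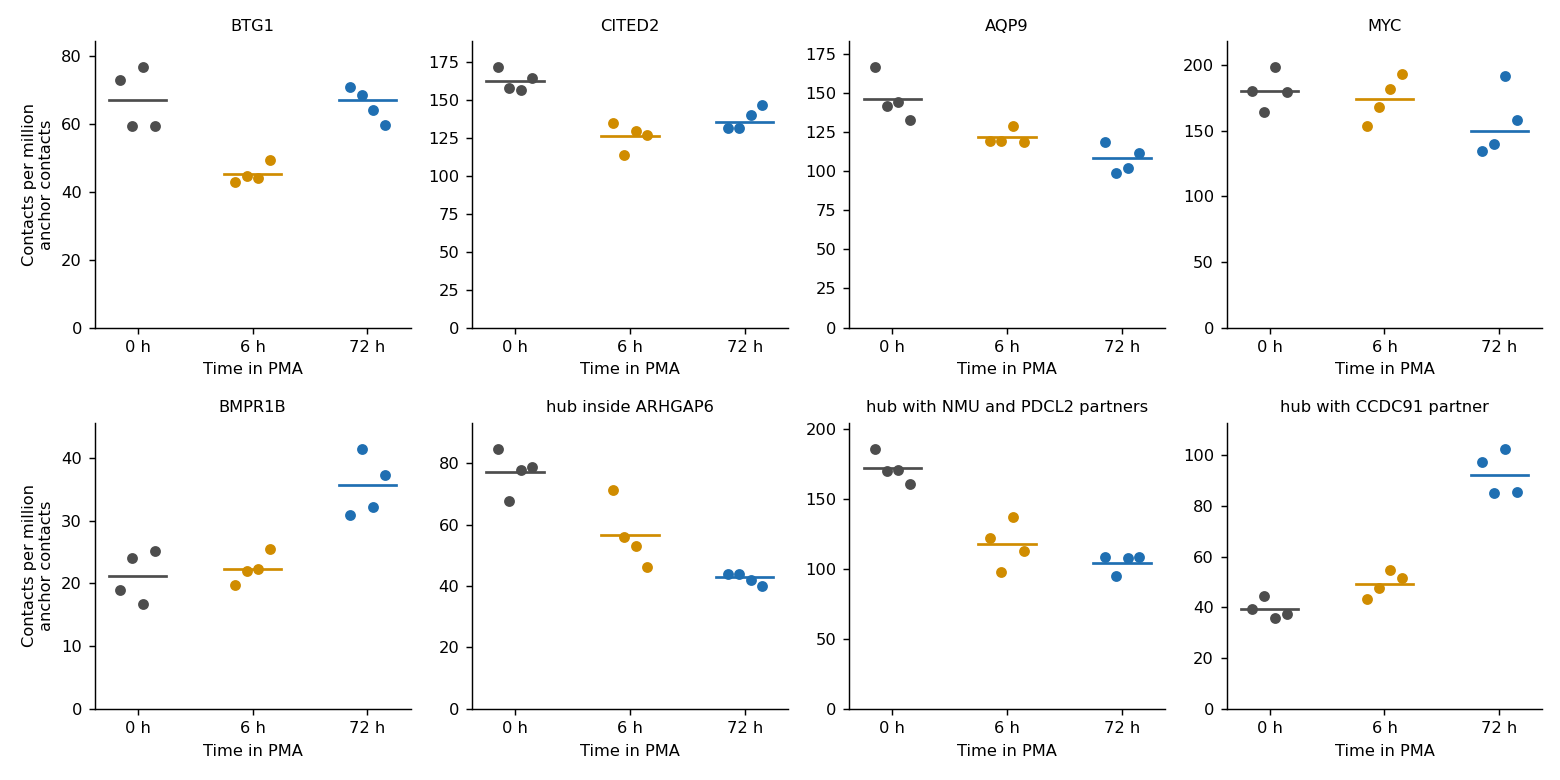
Normalized totals of 8 hubs in each library, in contacts per 1000000 anchor contacts; points are the 4 libraries of each time, lines are means (with the 72 h replicates 3 and 4 counted as 1) and each panel has its own axis from 0. At the hub with a CCDC91 partner the 72 h libraries, from 85.0 to 103, lie far above the others, and at BTG1 the 6 h libraries alone are low.

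Of the 10 busiest hubs, those at BMPR1B and MYC held a gene end. Among the 57 hubs of 8 or more loops, 13 did (22.8%), against 11.8% of those of 6 to 7 loops. Both 14-loop hubs pointed right. At chr4:95150001-95160000, at an end of BMPR1B, a receptor for bone morphogenetic proteins, totals were 18.9, 24.1, 16.7 and 25.1 at 0 h. They were 19.7, 22.0, 22.3 and 25.5 at 6 h, and 30.9, 41.5, 32.2 and 37.3 at 72 h. The first 2 times overlapped and 72 h lay above both, a log2 change of 0.72 (SE 0.14, edgeR adjusted p = 1.09e-05). The median loop spanned 2065 kb, and with the length correction the value was 0.22 (adjusted p = 0.207). The next 10 kb bin, chr4:95160001-95170000, at an end of UNC5C, a netrin receptor gene, was itself a hub of 9 loops. Its totals went from 58.8 ± 4.5 to 50.6 ± 4.2, a log2 change of -0.18 that did not pass the test (adjusted p = 0.164) and was -0.28 with the length correction (adjusted p = 0.0231). The difference between these neighbours was not tested.

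The other 14-loop hub, chr11:96460001-96470000, and the 12-loop hub chr11:99010001-99020000 were each other's partners over 2550 kb. Their totals rose by 0.25 and 0.46 on the log2 scale at 72 h, and with the length correction the values were -0.05 and -0.05. At the hub chr1:192440001-192450000, with 12 loops, a rise of 0.35 became -0.09. The 12-loop hub inside CADM2, chr3:85570001-85580000, and the 11-loop hub chr1:72850001-72860000 rose by 0.34 and 0.58, and had 0.02 and 0.17 after the correction, past no threshold. The 10-loop hub inside MEF2C, chr5:88720001-88730000, rose by 0.31 and had 0.02 after the correction. All 7 of these busy hubs that rose thus lost the call. The rises of chr11:96460001-96470000, CADM2 and MEF2C were also lost with DESeq2. Each of these 3, and chr1:192440001-192450000, lost the call without 1 or more single libraries: 72 h replicate 3 at the last, 0 h replicate 3 at MEF2C, 0 h replicates 1 and 3 and 72 h replicates 2, 3 and 4 at chr11:96460001-96470000, and these and 0 h replicate 4 at CADM2. The 3 that fell kept it under that correction.

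MYC, the proto-oncogene, lies in the hub chr8:127730001-127740000, from which 10 loops run to the right. The touching bin that starts at 127720001 was also a hub, with partners on both sides, and its total was not called at 72 h. Totals of the MYC hub were 180, 164, 198 and 179 at 0 h, 154, 168, 182 and 193 at 6 h, and 135, 140, 192 and 158 at 72 h. The times overlapped, since 72 h replicate 3 held 192, and the log2 change of -0.21 at 72 h (SE 0.078, edgeR adjusted p = 0.0267) was -0.33 with the length correction. This call was lost with DESeq2, with library totals in place of TMM, and without 0 h replicate 3, 72 h replicate 1 or 72 h replicate 2. The loops of 230 kb and 460 kb fell at 72 h, by 0.51 and 0.60 on the log2 scale, and the loop of 1570 kb rose by 0.70. That rise was 0.235 with the length correction and did not pass (edgeR adjusted p = 0.564). The longest, of 1950 kb, joins MYC to the 11-loop hub chr8:129680001-129690000 and held 35.6 ± 3.1, 35.8 ± 9.3 and 38.4 ± 8.0, with no change past the threshold.

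The hub at the far end of that loop fell at both times. Totals of chr8:129680001-129690000 were 155, 138, 152 and 154 at 0 h, 113, 120, 139 and 112 at 6 h, and 121, 123, 140 and 123 at 72 h. The libraries of 0 h and the later times overlapped by the lowest 0 h library alone. The log2 fold changes were -0.32 at 6 h and -0.24 at 72 h (edgeR adjusted p = 0.00612 and 0.00926). The fall was mainly in its shortest loop, of 90 kb, which went from 101 ± 8.3 to 57.9 ± 15 and 52.9 ± 7.2. The 10-loop hub inside PPP2R3A, chr3:136070001-136080000, fell by 0.24 on the log2 scale at 72 h (adjusted p = 0.0194), a call lost with DESeq2, with library totals, and without 0 h replicate 1, 0 h replicate 2 or 72 h replicate 2.

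Single hub loops gave the same picture by length. At 72 h 280 of 1294 tested hub loops rose and 113 fell (30.4%), against a background of 33.6% of all tested loops called, 16.7% up and 16.9% down. The share called was thus near the background and the split was not. After the length correction 144 rose and 153 fell, so the excess of rises over falls was gone. All tested loops then had 3314 up and 3847 down, with a median log2 fold change of -0.03, against 0.02 for hub loops. The share called was then 23.0%, below the background of 29.7% under that correction. Loops of up to 200 kb at hubs rose in 37 and fell in 44 of 175, those of 1 Mb and longer rose in 84 and fell in 1 of 216, and those between rose in 159 and fell in 68 of 903. Other loops of the same lengths had 1171 and 2375 of 8026, 363 and 21 of 1082, and 2210 and 1572 of 13730. Median log2 fold changes were -0.08, 0.51 and 0.13 for hub loops and -0.13, 0.44 and 0.06 for the others in these classes. Of 843 hub loops of 1 Mb and longer, 216 were tested. A loop weak at 0 h could pass the low-count filter through its 72 h libraries alone. The split of long loops may thus depend in part on the filter. With no filter 312 of 2231 hub loops rose at 72 h and 147 fell. At 6 h 24 hub loops rose and 35 fell (4.56%, against a background of 6.41%, 2.34% up and 4.07% down); without 0 h replicate 1 the count was 32 and without 6 h replicate 2 it was 37. From 6 h to 72 h 189 rose and 62 fell (19.4%, against a background of 20.5%, 10.7% up and 9.81% down). After the length correction 132 hub loops rose and 70 fell in this comparison (15.6%). All tested loops then had 2311 up and 2412 down (19.6%), so here an excess of rises among hub loops remained.

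The largest rise of a hub loop was on chromosome 12, from the hub chr12:114660001-114670000 to the bin that starts at 115390001. It held 11.6, 7.59, 6.27 and 13.6 contacts per 1000000 loop contacts at 0 h and 63.7, 64.3, 41.6 and 49.1 at 72 h, a log2 change of 2.25 (SE 0.20, edgeR adjusted p = 1.84e-19). The next were a 630 kb loop of the hub chr12:28870001-28880000 (1.93), a 690 kb loop at ABCC12 (1.75), a 910 kb loop at STPG2 (1.70) and a loop of 1820 kb on chromosome 2 (1.57). ABCC12 encodes a transporter of the ABC family. The loops at ABCC12 and STPG2 had also risen at 6 h, by 1.21 and 1.23, from means of 2.60 and 4.23. The largest falls were a 490 kb loop on chromosome 11, from 19.2 ± 1.8 to 5.58 ± 2.5, and a 300 kb loop on chromosome 4, from 21.1 ± 8.3 to 7.94 ± 2.8. A 390 kb loop of the ARHGAP6 hub followed, with a log2 change of -1.15, then the NMU loop with -1.05 and a 180 kb loop of chr11:96460001-96470000 with -1.05. At 6 h the largest falls were a loop of 1210 kb (-0.98) and a loop of 310 kb (-0.88) on chromosome 8, and the 260 kb loop of BTG1. A further rise at 6 h, of a 580 kb loop on chromosome 4, was 1.14 from a mean of 3.02, and did not pass with the length correction (edgeR adjusted p = 0.0539). This loop too could pass the filter through later libraries alone.

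The loops of a hub often changed unequally. A test of whether an anchor's loops shared 1 fold change called 102 of 248 hubs with 2 or more tested loops at 72 h (41.1%), against a background of 20.2% of 10548 anchors, and 18 at 6 h (7.26%, background 3.95%). Most background anchors had 2 or 3 loops, and the difference in the number of loops was not adjusted for. After the length correction 88 hubs were called at 72 h (35.5%, background 20.2%) and 11 at 6 h (4.44%, background 2.54%). At 6 h leaving out 0 h replicate 1, 0 h replicate 3 or 6 h replicate 2 gave 11 each and leaving out 6 h replicate 4 gave 10. Within a hub, the longest tested loop had a higher log2 fold change at 72 h than the shortest in 167 of 247 hubs (67.6%), and in 123 (49.8%) after the correction. The same held for 60.3% of anchors of 4 to 5 loops and 52.0% of those of 2 to 3 loops, and for 45.1% and 42.3% after the correction. Here too, and in the test of unequal change, long loops weak at 0 h could be tested through later libraries alone. Of 115 hubs with 2 or more changed loops, 68 had rises alone, 16 had falls alone and 31 had both (27.0%). Both directions were found at 19.4% of such anchors of 4 to 5 loops and at 12.6% of those of 2 to 3 loops, and the number of changed loops was not adjusted for.

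The smallest p for unequal change was at chr3:33880001-33890000 (edgeR adjusted p = 2.74e-16). Its 130 kb loop fell from 96.6 ± 13 to 46.0 ± 6.1, while its 2810 kb loop rose from 8.65 ± 0.98 to 25.9 ± 5.0. The 2810 kb loop could pass the low-count filter through its 72 h libraries alone, so the contrast may depend in part on the filter. The total of the hub had a log2 change of -0.24 (adjusted p = 0.019), lost with library totals and without 0 h replicate 2, 72 h replicate 1 or 72 h replicate 2.

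At the ID2 hub, chr2:8680001-8690000, the total was 118, 108, 132 and 120 at 0 h and 126, 99.2, 117 and 123 at 72 h. These overlapped, with a log2 change of -0.03 (edgeR adjusted p = 0.813), yet its loops differed (adjusted p = 9.36e-12). The 160 kb loop fell from 154 ± 19 to 108 ± 12 at 6 h and 106 ± 23 at 72 h. The loops of 600 kb, 1260 kb, 1480 kb and 1570 kb rose at 72 h, by 0.73, 0.99, 0.78 and 1.00 on the log2 scale. With the length correction the 1260 kb loop had 0.55, and the 1570 kb loop had 0.53 and did not pass (edgeR adjusted p = 0.113). The 1570 kb loop, with a 0 h mean of 7.99, could also be tested through its 72 h libraries alone. The loops of 390 kb and 680 kb lay between, at -0.07 and 0.26, past no threshold.

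At chr12:114660001-114670000 the order by length was not seen. Its total rose by 0.85 on the log2 scale at 72 h, with 5 of 6 loops rising, from 1.16 and 2.25 for the loops of 500 kb and 730 kb down to 0.02 for the longest, of 1250 kb, which did not pass. At chr11:96460001-96470000 the 180 kb loop fell, and the loops of 680 kb and 2550 kb rose by 0.67 and 1.14; the last of these had 0.52 and did not pass with the length correction (edgeR adjusted p = 0.0515). The hub at the far end of the MYC loop was the last of the 5 with the smallest p (adjusted p = 1.01e-07).

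**Figure D5:**
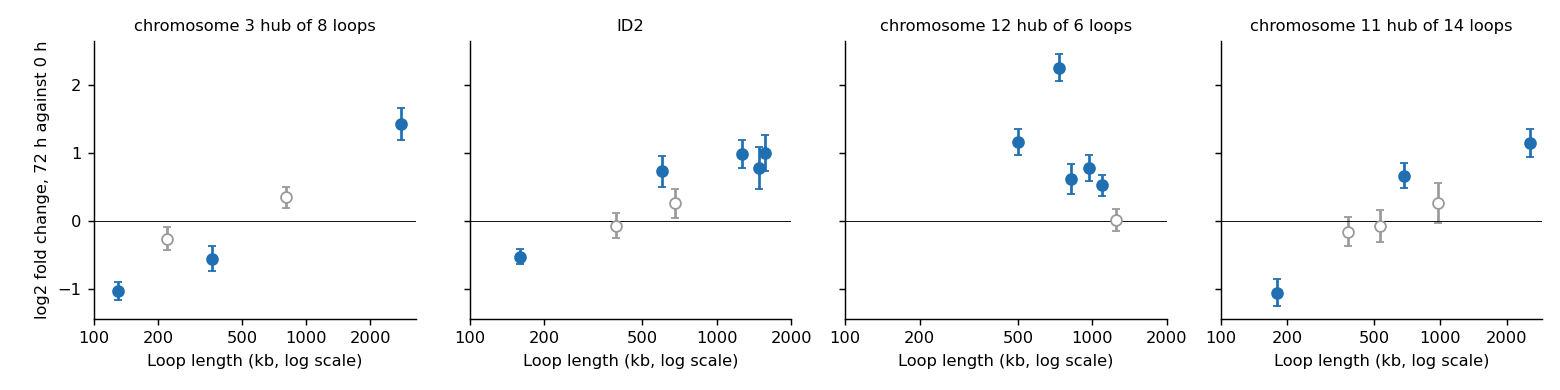
Log2 fold change from 0 h to 72 h of each tested loop, against its length on a log axis, for 4 hubs, with bars of 1 SE; filled points passed the test. At ID2 and the chromosome 3 hub the shortest loop lies below 0 and the longest above it, while at the chromosome 12 hub the loop of 730 kb is highest, at 2.25.

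Hubs at gene ends moved both ways. Of the 46, all tested, 21 rose and 7 fell at 72 h (60.9%), against 53.9% called of all 334 hub totals and 39.1% of all anchor totals; the difference from other hubs was not tested. The genes named in this paragraph beyond those above were picked after their values had been seen. Rises were at MED7, a subunit of the Mediator complex (log2 fold change 0.93), and at GJA1, the gap junction protein connexin 43 (0.91, with a 0 h mean of 12.2 per 1000000). These 2 values are without the length correction. The MED7 hub had 7 loops, 0 of them tested, with medians of 1040 kb and 6.67 contacts per library. Loops of the group of 2 hubs that holds GJA1 had a median length of 1035 kb. The hub at BCL6, a transcriptional repressor of B cells, rose from 79.8 ± 10 to 118 ± 6.5, a log2 change of 0.57 (edgeR adjusted p = 7.38e-08) that was 0.42 after the length correction. The 7 falls were at AQP9, POLQ, LRRC31, SMNDC1, CITED2, KIF26B and MYC, from -0.44 to -0.21. POLQ, the gene of DNA polymerase theta, had -0.38. The hub inside RUNX1 fell from 137 ± 10 to 114 ± 7.9, a log2 change of -0.24 (adjusted p = 0.0118).

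The authors' own calls were fewer. The authors' deposited table classed 56 hub loops (2.51%) as gained and 24 (1.08%) as lost, against 1000 (2.95%) and 503 (1.48%) of all 33914 loops. The authors' deposited table gave a fold change for 871 hub loops (39.0%) and for 19454 of all loops (57.4%). Of the loops with one, the authors' deposited table classed 6.43% of hub loops as gained and 2.76% as lost, against 5.14% and 2.59% of all, so the order of hub loops and all loops turned with the denominator. By the authors' deposited table, there were 275 of 337 hubs with no changed loop, 3 with 3 or more gained loops and 1 with 3 or more lost.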

How the data were processed

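In situ Hi-C of K562 cells gave 42 samples, 14 at each of 3 times. The deposited table holds raw contact counts for each loop and technical replicate, made by the authors, with 1 column for the 2 sequencing runs of a technical replicate in replicates 3 and 4; the submitters' processing notes name hg38, Juicer 1.5.6, DESeq2 and DESeq, with no role stated. Its log2 fold changes and loop classes are the authors' own comparison, as deposited, and the authors' adjusted p-values beside them are given without a test named. The members, gene lists and tests were chosen with earlier results of these data known.

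Technical replicates were summed into 12 libraries of 736929 to 1472197 contacts, so weak loops are measured with few contacts and the precision is that of counting. Loops and anchor totals were tested with edgeR 4.0.16 (R 4.3.3): TMM scaling, a filter on low counts (minimum 10 per library and 15 in total), a prior count of 2 and the quasi-likelihood test, with Benjamini-Hochberg adjustment over 24132 loops or 33306 anchors and a threshold of 0.05. The filter asked for the minimum in 4 libraries, which could all be of 1 time. The prior count pulls fold changes of weak loops toward 0. A diffSplice-type test in edgeR compared the loops of an anchor. All fits used the 12 libraries. Replicates 3 and 4 of 72 h differed by no more than sampling noise (chi-square per degree of freedom 1.003, p = 0.367, a chi-square test over loops) and count as 1 in means. The same pair was also close at 0 h (1.018, chi-square p = 0.0253) and 6 h (1.023, chi-square p = 0.00621). All other pairs within a time ran from 1.056 to 1.272. At 0 h and 6 h both replicates were kept, so n = 4 there may overstate the number of independent samples. The length correction used a loess offset per library on log10 length (span 0.3). For an anchor total, this was the mean log10 length of its loops, weighted by their contacts. Corrected totals are thus not sums of corrected loops. On simulated 72 h against 0 h data of 23940 loops, edgeR recovered 71.0% of 2-fold and 20.0% of 1.5-fold changes, with 7 false calls among 98. The simulation had a fixed dispersion and 100 changed loops at each fold, far fewer than were called in the data. Its recovery therefore does not give the sensitivity of the fits reported.

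Hubs described in detail were the 10 with the most loops, the 5 largest rises and falls at 72 h and at 6 h, the 5 with the smallest p for unequal change, and hubs at genes of the lists. Described loops were up to 2 rises and 2 falls of each such hub, and the 5 largest rises and falls over all hub loops at 72 h and the 3 largest at 6 h. Genes were matched by symbol to RefSeq (GRCh38.p14). DESeq2 1.42.0, other scalings and filters, other hub definitions, a replicate block, a batch term and leaving out each library were tried as alternatives.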

Additional observations from a re-analysis of the deposited data

Results flagged for a closer look

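Among 166 groups of 4 libraries examined, 14 had a library far from the other 3 by Dixon's criterion, where chance gives about 8.3 (1 in 20). Of hub totals, per 1000000 anchor contacts, 0 h replicate 2 was low at chr8:129680001-129690000, with 138.2 against 152 to 155, and at chr6:141560001-141570000, with 8.35 against 10.49 to 10.7. It was high at chr1:82890001-82900000, with 16.7 against 11.7 to 12.3. One 6 h library was high at the AQP9 hub, with 128.8 against 119. Of loops, per 1000000 loop contacts, the 2550 kb loop between the busiest hubs of chromosome 11 had a 6 h library at 36.8 against 11.8 to 15.7. The 140 kb loop of chr8:129680001-129690000 had a 0 h library at 57.9 and the 300 kb loop of chr4:55730001-55740000 one at 63.0. The 440 kb loop of chr2:177160001-177170000 had a 6 h library at 56.7. The 1260 kb loop of ID2 and the 500 kb loop of chr12:114660001-114670000 each had a 0 h library at 10.2, and the latter also a 6 h library at 14.7. A 310 kb loop on chromosome 8 had a 6 h library at 29.7, and a 580 kb loop on chromosome 4 a 0 h library at 1.25. The share of contacts in hub loops was 3.571% in 0 h replicate 2, against 3.44% to 3.45% in the other 0 h libraries.

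At 3 hubs the total moved in the first 6 h and returned afterwards, each step past the threshold of the edgeR test; the steps share the 6 h libraries. The hub chr12:105050001-105060000, inside ALDH1L2, a mitochondrial folate enzyme gene, rose by 0.39 on the log2 scale and then had -0.35. The ADGRB1 hub, chr8:142440001-142450000, had 0.32 and then -0.24 (0.26 at 6 h and no longer called with the length correction). The BTG1 hub had -0.56 and then 0.54. Of single hub loops 10 changed back in this way, 5 up first and 5 down first.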

How the results depend on the processing

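The correction for loop length took hub totals called at 72 h from 180 to 110 and unequal hubs at 6 h to 11. It turned the 72 h log2 fold changes of chr11:96460001-96470000, chr1:192440001-192450000 and chr11:99010001-99020000 to -0.0510, -0.0918 and -0.0530, and the 6 h difference of the hub share to -0.0438 with length classes standardized. The causes were not tested. In the order 6 h against 0 h, 72 h against 0 h and 72 h against 6 h, hub loops called were 18, 222 and 91 by DESeq2, and 25, 243 and 115 at an adjusted p under 0.01. They were 23, 232 and 123 within replicates 1 and 2, and 9, 170 and 73 within replicates 3 and 4; these subsets, chosen for loops and totals after seeing the data, hold fewer libraries. With hubs of 5 or more loops the counts were 158, 932 and 576, with 8 or more 19, 87 and 59, and with touching anchors merged 473, 2882 and 1774. Hub totals called were 46, 447 and 281, then 6, 37 and 22, and 176, 1186 and 762 under the same definitions. They were 5, 105 and 54 within replicates 1 and 2 and 4, 119 and 65 within replicates 3 and 4, and 3, 54 and 28 at a fold change of at least 1.5. DESeq2 gave 8 totals at 6 h and 65 from 6 h to 72 h, and an adjusted p under 0.01 gave 8 and 65. Unequal hubs were 8 and 66 (6 h and 72 h) under 0.01, 53 and 241 at 5 or more loops, and 6 and 23 at 8 or more. Leaving out each library gave 32 to 58, 311 to 420 and 183 to 267 hub loops, 10 to 23, 148 to 183 and 80 to 109 totals, and 10 to 18 and 79 to 113 unequal hubs. The share differences then ranged between 0.0799 and 0.135 at 6 h, and between 0.419 and 0.469 at 72 h. Same-numbered libraries correlated by 0.0146 to 0.124, all above 0, and differently numbered ones by -0.0738 to 0.0441. The numbers may thus pair libraries in part, most at replicate 2 (0.0606 to 0.124). The main fits and the permutation tests did not pair them. The replicate block gave 33 hub totals at 6 h, 193 at 72 h and 70, 410 and 270 hub loops, against 20 and 180 totals and 59, 393 and 251 loops in the main fits. Depth limits the weakest hubs: 937 hub loops had too few contacts to test.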
